A study of Mus musculus with 26 samples.

Results

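Cyp1a1, Cyp1a2, Cyp1b1, Aldh3a1, Ahrr and Tiparp are target genes of the dioxin receptor, the aryl hydrocarbon receptor AhR. They were taken from the gene table by symbol, as AhR targets outside the NRF2 and Ugt gene groups, and all 6 were present among its 54532 genes. Liver RNA was sequenced from 26 C57BL/6 mice gavaged once a day for 3 days with benoxacor, a safener added to herbicides to protect crops, and harvested 24 hours after the last dose. The control dose of 0 mg/kg had 5 mice, the low dose of 0.5 mg/kg had 5, the middle dose of 5 mg/kg had 8 and the high dose of 50 mg/kg had 8. All mice had been acclimatised between 4 and 8 weeks and had shared mixed bedding. The labels give no sex, and they name no vehicle for the 0 mg/kg mice.

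AhR is a receptor of the cytoplasm that binds flat aromatic chemicals, among them dioxins, and moves to the nucleus, where it pairs with ARNT and binds DNA at a short core motif. In liver its best known targets are P450 enzymes of the CYP1 family, which oxidise aromatic chemicals, and Aldh3a1, which oxidises aldehydes. It also switches on Ahrr and Tiparp, whose products restrain the receptor in a feedback loop.

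The mouse numbers in the labels form a run from 601 to 616 (15 mice: 4, 3, 4 and 4 at the rising doses) and a run from 619 to 632 (11 mice: 1, 2, 4 and 4). What separates the runs is not in the labels. Doses rise with mouse number inside each run, so dose and number order cannot be told apart. Libraries held 5433074 to 9088626 reads counted to genes, with a median of 7105531. The hepatocyte marker Alb lay between 33686 and 106224 CPM (reads scaled to library size, here with TMM factors) in every library. The library of 5 mg/kg replicate 8 stood apart: 7 markers of steroid-producing cells summed to 3842 CPM there and to 2.66 to 18.9 CPM in the other 25 libraries. Fold changes over all mice and pooled Ahrr levels that rest on it are given with and without it.

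The start regions of the members are shown because the receptor's core motif, GCGTG, can be looked for in them. RefSeq (GRCm38.p6) gave promoters for 5 of the 6 members, from 250 bases before the start site to 50 after it. The core, searched on both strands, was found in 4 of these 5. In the lines that follow, each 5′ to 3′ on the gene's own strand, capitals mark the core; CACGC is the core read from the other strand.
Cyp1a1 (chr9:57697531-57697591, + strand): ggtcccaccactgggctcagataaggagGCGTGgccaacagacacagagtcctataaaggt
Cyp1b1 (chr17:79715105-79715165, - strand): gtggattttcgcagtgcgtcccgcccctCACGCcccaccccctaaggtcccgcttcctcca
Tiparp (chr3:65528249-65528309, + strand): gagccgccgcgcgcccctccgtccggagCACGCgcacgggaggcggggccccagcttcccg
Ahrr (chr13:74292332-74292466, - strand): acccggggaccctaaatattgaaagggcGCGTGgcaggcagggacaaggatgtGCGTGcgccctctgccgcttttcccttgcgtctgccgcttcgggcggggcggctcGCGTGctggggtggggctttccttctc

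The core begins at position -54 from the start site in Cyp1a1, at -76 in Cyp1b1 and at -170 in Tiparp. Ahrr holds 3 cores, at -107, -82 and -27, and the last of them also matches the longer form TNGCGTG, which contains the core. No core was found in the window of Cyp1a2, whose start site lies 13958 bases from that of Cyp1a1 on the opposite strand. Of all 32851 promoters of this length in the table, 32.4% hold at least 1 core, 3.91% hold 3 or more and 5.07% hold TNGCGTG. A single core is thus a common feature, and a match describes the letters and not binding.

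The members lie at very different levels in mouse liver. Per kilobase of exon, mean levels over 26 mice were 174 CPM for Cyp1a2, 2.26 for Tiparp, 0.506 for Cyp1a1, 0.287 for Cyp1b1, 0.0127 for Ahrr and 0.0125 for Aldh3a1. Cyp1a2 exceeded Tiparp, and Tiparp exceeded Cyp1a1, in 26 of 26 mice on this per-length scale. Cyp1a1 exceeded Cyp1b1 in 22 mice and lay below it in 4, so this step in the order is less firm. Ahrr and Aldh3a1 were both without a read in 15 mice, and their order cannot be read at this depth. The means of Cyp1b1 and Ahrr lean on 5 mg/kg replicate 8. Without it, and before scaling by length, they fell from 1.68 to 1.02 CPM and from 0.120 to 0.0587 CPM. The edgeR filter asks for at least 1.41 CPM in 5 mice. Cyp1a2 and Tiparp reached that level in 26 mice, Cyp1a1 in 14 and Cyp1b1 in 6, while Ahrr reached it in 1 and Aldh3a1 in 0. Ahrr and Aldh3a1 were therefore not tested. Cyp1b1 entered through 2 mice of the low dose, 3 of the middle and 1 of the high dose, and through none of the controls.

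**Figure D1:**
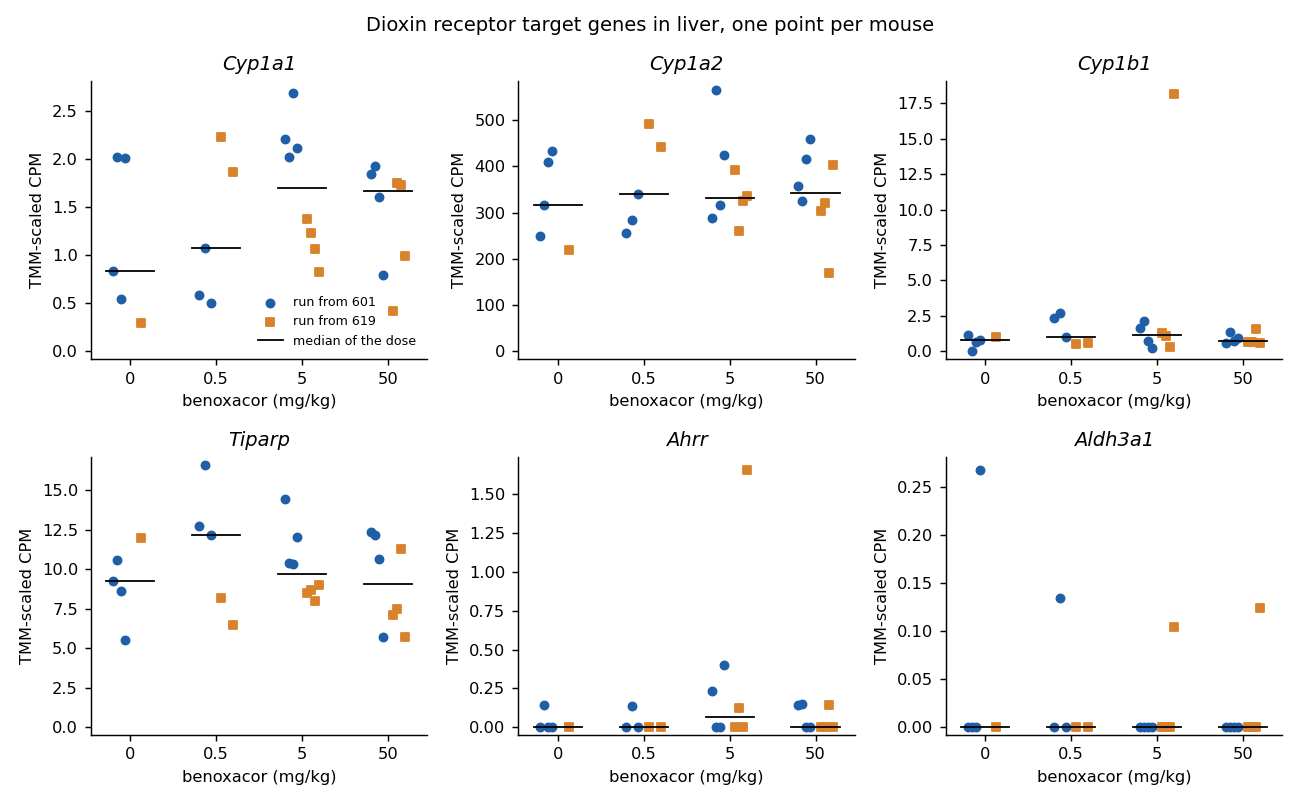
TMM-scaled CPM of each member (y axes, separate scales) against the benoxacor dose in mg/kg (x axes), with 1 point per mouse, circles for the run from 601, squares for the run from 619, and a line at the median of each dose. In none of the 6 panels do all treated mice of a dose lie above the controls, and a single square at 5 mg/kg stands far above all others for Cyp1b1 (18.2 CPM) and Ahrr (1.66 CPM).

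None of the 4 tested members passed an adjusted p of 0.05 at any dose by edgeR's quasi-likelihood fit, which had terms for dose and run and was adjusted by Benjamini-Hochberg over 14415 genes. The background was as low: 0.00694% of genes were called at 50 against 0 mg/kg and in the joint test of any difference among the 4 doses. The share was 0% when the middle or low dose was set against 0 mg/kg, and 0% when the high dose was set against the middle one. A count of 0 members is therefore near the background. At an unadjusted p under 0.05 there were 737 genes (5.11%) and 0 members for the high dose against 0 mg/kg. For the middle dose there were 891 genes (6.18%) and 1 member, and for the low dose 1008 genes (6.99%) and 0 members. The high dose against the middle one gave 699 genes (4.85%) and 1 member. That member was Cyp1b1 both times. It entered the test through treated mice only, among them 5 mg/kg replicate 8, so its values are a description. DESeq2 and limma-voom called 0 of the 4 members as well. The joint edgeR test, with every library included, gave adjusted p = 0.944 for Cyp1a1, 0.974 for Cyp1a2, 0.86 for Cyp1b1 and 0.936 for Tiparp. Every dose was set against the same 5 controls, so these values are not independent. In bulk RNA, fewer cells of a type and less RNA per cell cannot be told apart.

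**Figure D2:**
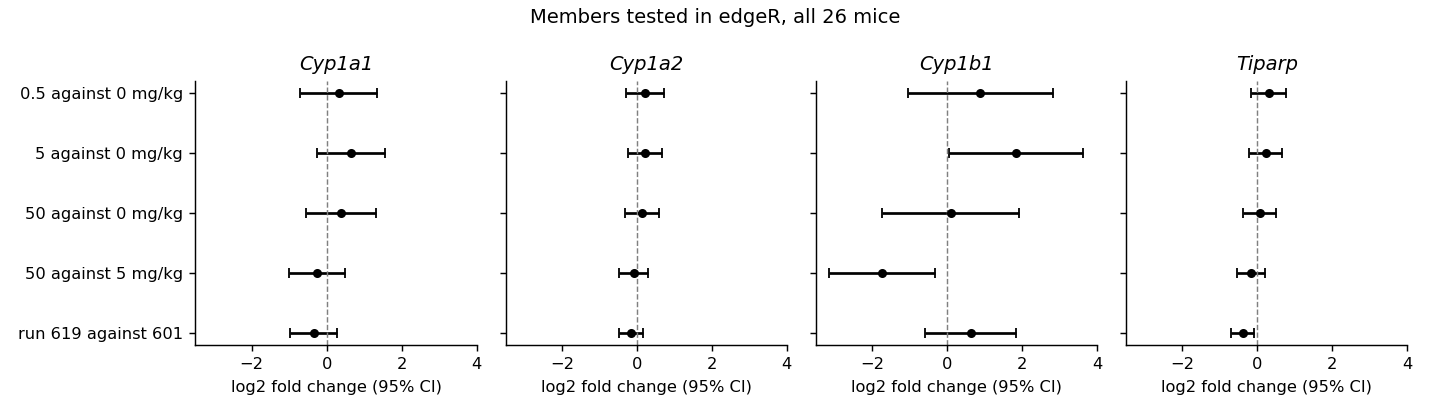
Log2 fold changes (x axes, points) with 95% confidence intervals (bars) of the 4 tested members for 4 dose comparisons and for the run from 619 against the run from 601, from edgeR over all 26 mice. Intervals are narrow for Cyp1a2 and Tiparp, wider for Cyp1a1 and widest for Cyp1b1.

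Cyp1a1 (ENSMUSG00000032315, mm10 chromosome 9 from 57687928 to 57703824, + strand) encodes the P450 that is most strongly induced by dioxins and is the usual marker of AhR activity. It was scarce in all groups. The 5 controls had 0.84, 2.03, 0.549, 2.01 and 0.296 CPM, from 2 to 15 reads each. The 0.5 mg/kg mice had 0.589, 1.08, 0.507, 2.23 and 1.87 CPM. Both groups thus held some mice near 2 CPM and others well below 1. At 5 mg/kg the lowest, median and highest values were 0.83, 1.70 and 2.70 CPM, and at 50 mg/kg they were 0.416, 1.67 and 1.93 CPM. The controls overlapped every dose: above the highest control lay 4 of 8 mice of the middle dose and 0 of 8 of the high dose. The medians of the higher doses were above the control median of 0.84 CPM, but the log2 fold change was 0.65 (SE 0.44) for the middle dose and 0.39 (SE 0.45) for the high dose, with edgeR adjusted p of 0.784 and 0.997. For the low dose it was 0.32 (SE 0.50, adjusted p = 0.957 in edgeR). The 95% interval at 50 mg/kg ran from 0.69-fold to 2.48-fold of the control level, so an induction above that upper bound lies outside it, while a doubling lies inside. Its variance between mice was 2.33 times that of counting alone.

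Inside some doses the Cyp1a1 values of the runs lay apart, at 2 to 19 reads per library. Neither its run difference (edgeR adjusted p = 0.837) nor its interaction of run and dose at 5 and 50 mg/kg (edgeR adjusted p = 0.982) passed. In the middle dose the 4 mice of the run from 601 had 2.03 to 2.70 CPM and the 4 of the run from 619 had 0.83 to 1.38 CPM, without overlap. In the low dose the order was the other way round, with 0.507 to 1.08 CPM in the 3 mice of the run from 601 and 1.87 and 2.23 CPM in the 2 of the run from 619. The share of all genes that separate by run in groups this small was not counted. The 1 control of the run from 619 was the lowest of all 26 mice, at 0.296 CPM. Within the run from 601 the log2 fold changes against 0 mg/kg were -0.91, 0.71 and 0.18 from the low to the high dose. Within the run from 619, where they rest on that 1 control, they were 2.75, 1.88 and 1.99. Without this control, 0 mg/kg replicate 5, the values over both runs were 0.01, 0.38 and 0.10. With any 1 mouse left out they ranged from -0.002 to 0.62, from 0.38 to 0.93 and from 0.098 to 0.67. No version was past the threshold.

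Cyp1a2 (ENSMUSG00000032310, chromosome 9 from 57676937 to 57683703, - strand) encodes the CYP1 enzyme that liver makes without any inducer, and it oxidises caffeine and aromatic amines. It was by far the most abundant member and the most precisely measured, with 1176 to 4176 reads per library. The controls had 248, 317, 410, 432 and 218 CPM, and the 0.5 mg/kg mice 255, 285, 341, 492 and 442 CPM. At 5 mg/kg the lowest, median and highest values were 260, 331 and 565 CPM, and at 50 mg/kg they were 170, 341 and 460 CPM. The groups overlapped almost fully, and the medians of all 4 doses lay between 317 and 341 CPM. From the low to the high dose the log2 fold changes were 0.22 (SE 0.25), 0.21 (SE 0.22) and 0.13 (SE 0.22), with edgeR adjusted p of 0.921, 0.847 and 0.997. At 50 mg/kg the 95% interval was 0.80-fold to 1.504-fold of the control level. All 3 values rest in part on 0 mg/kg replicate 5, the lowest control: without it they were 0.067, 0.085 and -0.0058. With any 1 of the 26 mice left out, they ranged from 0.067 to 0.37, from 0.081 to 0.33 and from -0.0058 to 0.25.

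The spread of Cyp1a2 between mice was 25.8% of its mean and 167 times the variance of counting alone, so its mice differed by far more than counting allows. Run means were 363 ± 87.2 CPM (SD, n = 15) for mice from 601 on and 333 ± 95.6 CPM (n = 11) for mice from 619 on. Cyp1a1 and Cyp1a2 share 94 stretches of 50 bases, which are 3.43% of those in Cyp1a1, so some reads of the abundant gene could be counted to the scarce one or dropped. How such reads were handled is not given in the sources used here.

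Cyp1b1 (ENSMUSG00000024087, chromosome 17 from 79701537 to 79715061, - strand) encodes the CYP1 enzyme typical of tissues outside the hepatocyte, such as steroid-producing glands and connective tissue cells. The controls had 1.12, 0, 0.686, 0.805 and 1.03 CPM, and the 0.5 mg/kg mice 2.36, 2.69, 1.01, 0.496 and 0.585 CPM. At 5 mg/kg the lowest, median and highest values were 0.265, 1.19 and 18.2 CPM, and at 50 mg/kg they were 0.568, 0.712 and 1.59 CPM. The highest value is that of 5 mg/kg replicate 8, with 175 of the 358 Cyp1b1 reads in all 26 libraries, and it is 6.74 times the next highest mouse. The 7 other mice at 5 mg/kg averaged 1.07 ± 0.693 CPM (SD, n = 7).

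That 1 library set the size of the Cyp1b1 result. With it, the log2 fold change was 1.83 (SE 0.87) for 5 against 0 mg/kg (unadjusted p = 0.0443, adjusted p = 0.78 in edgeR) and -1.73 (SE 0.69) at 50 against 5 mg/kg (unadjusted p = 0.0188, adjusted p = 0.962). Without it they were 0.64 and -0.25. The difference of the run from 619 from the run from 601 turned from 0.63 to -0.43. At 0.5 against 0 mg/kg the value was 0.89 (SE 0.94, edgeR adjusted p = 0.918), carried by replicates 1 and 2, and it was -0.44 with both left out. At 50 against 0 mg/kg it was 0.10 (SE 0.89).

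All 7 steroid-producing cell markers had reads in 5 mg/kg replicate 8. Cyp11a1, the enzyme that starts steroid synthesis from cholesterol, was at 473 CPM there and at 0 in the other 25 libraries. Hsd3b1 was at 1306 CPM against at most 0.145 in the others, and Star, which carries cholesterol into mitochondria, was at 911 CPM against at most 6.11. Arnt2, a paralog of the AhR partner Arnt, was at 11.1 CPM there against at most 0.146. The 9 stellate cell and fibroblast genes summed to 488 CPM there and to 137 to 352 CPM in the other 25 libraries. Of these, the collagen gene Col1a2, named after its values were seen, was at 59.2 CPM against at most 20.8. Dcn, Lrat and Reln of the same list were inside the range of the other 25. The part of all these transcripts in the Cyp1b1 value was not tested. Of the other members, Ahrr was also highest in that library, at 1.66 CPM, while Cyp1a1 at 0.83, Cyp1a2 at 336 and Tiparp at 9.02 CPM were each inside the range of the other 25.

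**Figure D3:**
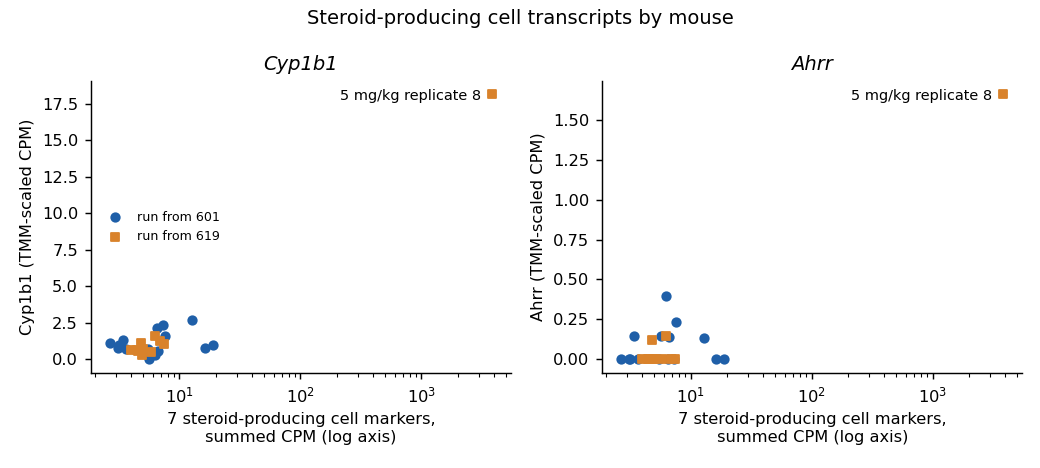
Cyp1b1 (left) and Ahrr (right) in TMM-scaled CPM (y axes) against the summed CPM of 7 steroid-producing cell markers (x axes, log scale), with 1 point per library, circles for the run from 601 and squares for the run from 619. The library of 5 mg/kg replicate 8 is alone at the upper right of both panels, and the other 25 lie at 2.66 to 18.9 CPM of the markers.

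Aldh3a1 (ENSMUSG00000019102, chromosome 11 from 61207537 to 61218421, + strand) encodes an aldehyde dehydrogenase that AhR ligands induce in liver from a very low base. Only 5 reads were counted to it in 26 libraries. They were 2 in 0 mg/kg replicate 4 and 1 each in 0.5 mg/kg replicate 2, 5 mg/kg replicate 8 and 50 mg/kg replicate 8. The 22 other libraries had none. In the 8 mice at 50 mg/kg together, 1 read gives 0.0178 CPM with an exact 95% Clopper-Pearson interval of 4.50e-04 to 0.0991 CPM, and in the controls 2 reads give 0.0584 CPM with 0.00707 to 0.211 CPM. The intervals overlap and cover counting error only, so no difference was detectable at this depth.

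Ahrr (ENSMUSG00000021575, chromosome 13 from 74211118 to 74292331, - strand) encodes the AhR repressor, which competes with AhR for ARNT. It had 27 reads in all, 16 of them in 5 mg/kg replicate 8 (1.66 CPM, 4.18 times the next highest mouse). Single reads were found in 1 control, 1 mouse of the low dose and 3 of the high dose. In the middle dose 3 further mice had 1, 2 and 3 reads. Pooled over the mice of a dose, Ahrr was at 0.0292 CPM (exact 95% interval 7.39e-04 to 0.163) at 0 mg/kg and at 0.0534 CPM (0.0110 to 0.156) at 50 mg/kg. The 5 mg/kg mice together had 0.360 CPM (0.226 to 0.545), and at 0.114 CPM (0.0417 to 0.247) without replicate 8. Without that library, the 5 mg/kg interval overlaps that of the controls. The variance between mice was 7.15 times that of counting with the library and 1.26 times without it.

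Tiparp (ENSMUSG00000034640, chromosome 3 from 65528410 to 65555518, + strand) encodes an ADP-ribosyltransferase that marks AhR for inactivation, and it is among the most widely induced targets across tissues. The controls had 9.24, 10.6, 8.65, 5.50 and 12.0 CPM, and the 0.5 mg/kg mice 12.8, 16.6, 12.2, 8.18 and 6.44 CPM. At 5 mg/kg the lowest, median and highest values were 7.96, 9.68 and 14.4 CPM, and at 50 mg/kg they were 5.69, 9.07 and 12.4 CPM. The controls overlapped each dose. Its log2 fold changes were 0.30 (SE 0.23), 0.23 (SE 0.21) and 0.06 (SE 0.21) from the low to the high dose, with edgeR adjusted p of 0.849, 0.832 and 0.997. The 95% interval at 50 mg/kg was 0.77-fold to 1.41-fold of the control level. These values depended on single controls: they were 0.54, 0.51 and 0.33 without replicate 5, the highest control, and 0.15, 0.077 and -0.086 without replicate 4, the lowest. Tiparp shares 223 exon bases with the opposite-strand pseudogene 4931440P22Rik, and whether the counting used strand is not given in the sources used here.

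The Tiparp value between runs was farther from 0 than that at any dose, and it did not pass the threshold. Of the middle dose, the 4 mice of the run from 601 had 10.3 to 14.4 CPM and the 4 of the run from 619 had 7.96 to 9.02 CPM. Of the low dose, the 3 mice of the run from 601 had 12.2 to 16.6 CPM and the 2 of the run from 619 had 6.44 and 8.18 CPM. The runs did not overlap at either of these doses, but how many of all genes separate in groups this small was not counted. They overlapped at 50 mg/kg, and among the controls the 1 mouse of the run from 619 was the highest of 5, at 12.0 CPM. Over all doses, the run from 619 against the run from 601 gave a log2 fold change of -0.38 (SE 0.15, 95% interval -0.69 to -0.08, unadjusted p = 0.0157, adjusted p = 0.45 in edgeR). Without that control, 0 mg/kg replicate 5, it was -0.53 (adjusted p = 0.148). Against 0 mg/kg, Tiparp had 0.68, 0.47 and 0.27 from the low to the high dose within the run from 601 and -0.69, -0.49 and -0.60 within that from 619, where 1 mouse is the control.

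In the run comparison 0 of the 4 tested members and 0.0902% of all genes passed (13 of 14415, 10 of them higher in the run from 619). Cyp1a1 had a log2 fold change of -0.35 and Cyp1a2 of -0.16, with edgeR adjusted p of 0.837 and 0.85. Beside these values, some listed clock genes differed between the runs. The lists were chosen with earlier results of these data known. Of 5 clock activators and late-phase genes, 5 had positive values and 2 rose in the run from 619 in edgeR: Npas2 by 3.46 (adjusted p = 0.00987) and Arntl by 1.296 (adjusted p = 0.049). Of 11 Period, Rev-erb and PAR bZIP genes, 10 had negative values with a median of -0.70, against 0.02 over all genes, and 0 passed. The part of the clock in the Tiparp difference was not tested. Whether the 50 against 5 mg/kg difference itself differed between runs was tested on the 16 mice of those doses: 0 of 3 members and 0% of 13418 genes passed, with values of 0.61 for Cyp1a1, -0.14 for Cyp1a2 and 0.06 for Tiparp. Cyp1b1 did not pass the filter there.

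Among the pairs of members, Cyp1a2 and Tiparp had the correlation farthest from 0 across the 26 mice, a negative one. The Pearson r of their log2 CPM was -0.426 (permutation p = 0.0305, adjusted p = 0.183 over 6 pairs of members) and the Spearman rho was -0.441 (permutation p = 0.0246, adjusted p = 0.0978), neither past the threshold. Within the runs r was -0.498 (from 601) and -0.735 (from 619), neither past the threshold (permutation adjusted p = 0.358 and 0.0619). Over both runs r was -0.509 after the 2 mice farthest from the median of Cyp1a2 were left out. After dose and run means were taken out, r was -0.694 (permutation p = 9e-05, adjusted p = 5.40e-04) and rho was -0.72 (permutation p = 2e-05, adjusted p = 1.20e-04). These permutations treat the deviations as 26 free values, though dose and run were fitted first, so their p-values may be too small. How often other pairs of genes reach such values was not counted. The mouse with the least Cyp1a2 at 50 mg/kg, at 170 CPM, had 11.3 CPM of Tiparp, and the one with the most, at 460 CPM, had 5.73 CPM. Such extremes had the same order at 0 and 0.5 mg/kg. At 5 mg/kg it was the other way round, with 8.66 CPM of Tiparp at 260 CPM of Cyp1a2 and 10.4 CPM at 565 CPM. The other 5 pairs of members did not pass in any version, with r from -0.242 for Cyp1a1 and Cyp1b1 to 0.301 for Cyp1a1 and Cyp1a2. The neighbours Cyp1a1 and Cyp1a2 thus showed no firm relation at this depth. Cyp1a1 had only 2 to 19 reads per library, and counting noise can pull its r toward 0.

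**Figure D4:**
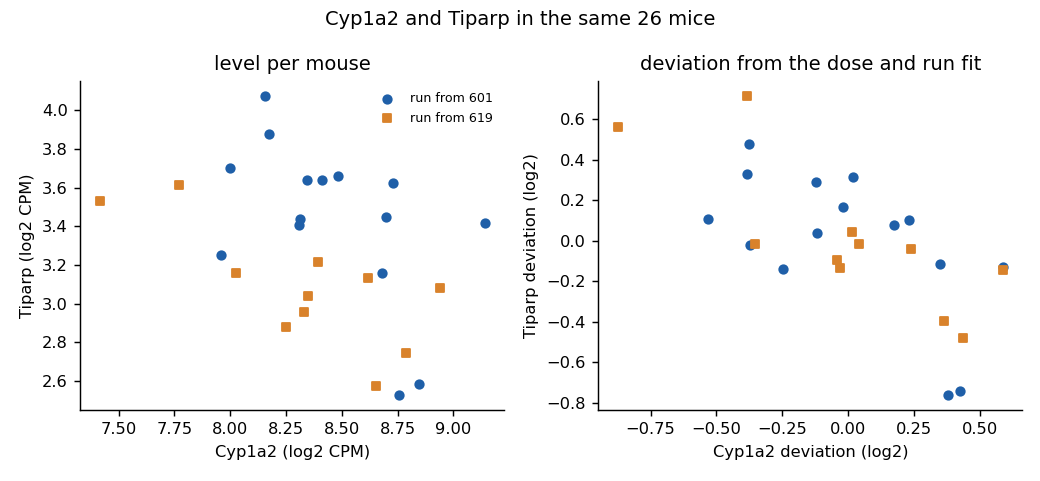
Tiparp against Cyp1a2 in 26 mice, as log2 CPM (left) and as deviation from the dose and run fit in log2 units (right), with circles for the run from 601 and squares for the run from 619. Points fall from upper left to lower right in both panels, with r = -0.426 on the left and r = -0.694 on the right.

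Both genes also varied with other features of the liver, in 8 relations chosen after their values were seen. Permutation p-values were adjusted over these 8 only. How many of all genes reach such r with either gene was not counted, so the values are a description. Cyp1a2 rose with the mean log2 CPM of 9 pericentral hepatocyte genes (r = 0.528, rho = 0.563, permutation p = 0.00517 and 0.00287, adjusted p = 0.0138 and 0.00816) and with that of 7 periportal genes (r = 0.62, rho = 0.564, permutation p = 5.00e-04 and 0.00306, adjusted p = 0.004 and 0.00816). It thus went with genes of both ends of the liver lobule. Within the runs from 601 and 619, r was 0.639 and 0.782 for the pericentral genes and 0.721 and 0.63 for the periportal genes. Without the 2 mice farthest from the Cyp1a2 median, r was 0.393 and 0.55.

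Cyp1a2 fell with Malat1, an RNA kept in the nucleus (r = -0.568, rho = -0.657, permutation p = 0.00251 and 4.10e-04, adjusted p = 0.01 and 0.00328). Within the runs, r was -0.809 and -0.569, and it was -0.633 without the 2 farthest mice. It also fell with Ahr, the receptor's own gene (r = -0.487, rho = -0.475, permutation p = 0.0118 and 0.0153, adjusted p = 0.0235 and 0.0306), with -0.493 and -0.56 within the runs and -0.411 without the 2 farthest mice. In the run from 619 alone the periportal, Malat1 and Ahr relations of Cyp1a2 did not pass (permutation adjusted p = 0.0899 each), and in the run from 601 that with Ahr did not (0.127). Tiparp went the other way: its r was -0.438 with the pericentral genes, -0.463 with the periportal genes, 0.439 with Malat1 and 0.392 with Ahr (permutation adjusted p = 0.0292, 0.0284, 0.0292 and 0.0473). Its rho was -0.445, -0.401, 0.371 and 0.253 (permutation adjusted p = 0.0378, 0.0573, 0.0709 and 0.21). Without the 2 mice farthest from the Tiparp median, r was -0.314, -0.497, 0.433 and 0.451. In the runs from 601 and 619, r for Tiparp was -0.164 and -0.657 with the pericentral genes, -0.39 and -0.587 with the periportal genes, 0.275 and 0.557 with Malat1, and 0.389 and 0.401 with Ahr. None of these within-run values for Tiparp passed after adjustment, and without 5 mg/kg replicate 8 its relation with Ahr did not either (r = 0.391, permutation adjusted p = 0.0546).

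The genes whose pattern over 26 mice was most like that of each member are named as a description, from 14268 genes with a mean of at least 1 CPM. For Cyp1a2 they were Pafah2 (r = 0.87), Bpnt1 (0.85) and Gulo (0.84), the last an enzyme of vitamin C synthesis. For Tiparp they were Prex2 (r = 0.83), Kpna2-ps (0.81) and Pcf11 (0.80). Cyp1a1, at 2 to 19 reads per library, had no close match, with Gm10516 (r = 0.61), Shmt1 (0.60) and Cdca7 (0.60) at the top. For Cyp1b1 they were Pam (r = 0.84), Cd63 (0.83) and Meg3 (0.81) with 5 mg/kg replicate 8, and Gm37305 (0.74), Map2k3os (0.73) and Pamr1 (0.72) without it.

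Other genes of the pathway gave 0 calls in edgeR in any comparison, which is near the share over all genes. Of 6 genes of the receptor machinery 5 were tested, and 0 passed in any comparison in edgeR. At 50 against 0 mg/kg Ahr had a log2 fold change of 0.17 (SE 0.23), Arnt 0.02 (SE 0.14), the chaperones Hsp90aa1 -0.08 (SE 0.32) and Hsp90ab1 -0.16 (SE 0.21), and the co-chaperone Ptges3 -0.01 (SE 0.15). Their median was -0.0097, against 0.0054 over all genes tested. Ahr itself averaged 44.5, 52.7, 36.2 and 49.5 CPM at the rising doses. Arnt2 was not tested, since it had reads mainly in 5 mg/kg replicate 8.

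Of the 5 AhR battery genes shared with NRF2 or the Ugt group, Nqo1, Ugt1a6a, Ugt1a6b, Gsta1 and Nfe2l2, all were tested and 0 passed in any comparison in edgeR. At 50 against 0 mg/kg 4 of 5 had positive values, with a median of 0.06. Nqo1, a quinone reductase, had 0.46 (SE 0.34) and Ugt1a6a, which conjugates phenols, had 0.06 (SE 0.27). Of 11 other genes known to respond to AhR ligands in liver, 8 were tested and 0 passed, with 2 positive values and a median of -0.07 at 50 against 0 mg/kg. Fmo2, a flavin monooxygenase named here after its values were seen, had 1.06 (SE 0.29), 0.99 (SE 0.29) and 0.81 (SE 0.31) from the high to the low dose, with edgeR adjusted p of 0.661, 0.75 and 0.605. Its mean was 11.3 CPM in the controls and 18.6, 19.2 and 20.8 CPM at the rising doses.

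**Figure D5:**
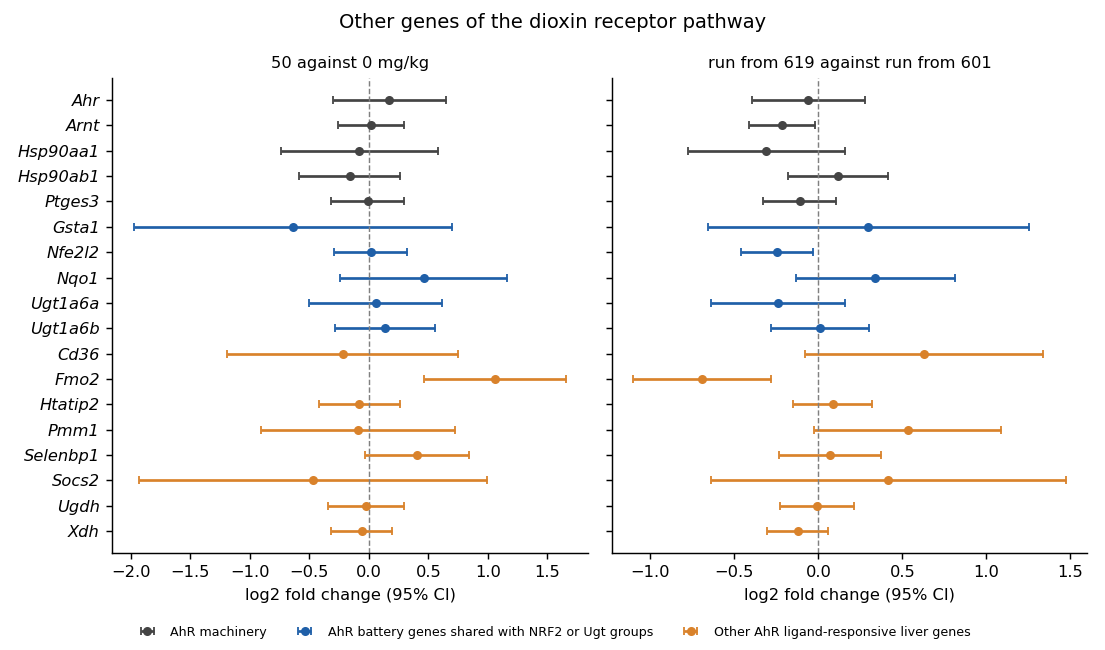
Log2 fold changes (x axes) with 95% confidence intervals (bars) of the tested genes of 3 pathway lists, marked by colour, at 50 against 0 mg/kg (left) and in the run from 619 against the run from 601 (right). Fmo2 has the highest value on the left (1.06) and the lowest on the right (-0.69), and 0 genes shown passed after adjustment.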

How the data were processed

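The authors deposited a raw count for each gene in 1 liver library per mouse. The submitters' processing notes name bcl2fastq, featureCounts and mm10. The aligner, annotation and strand setting are not given in the sources used here. Gene positions are from GENCODE M21 on mm10.

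Samples were grouped by labelled dose. Counts were filtered with filterByExpr, which left 14415 genes with 99.7% of the reads, scaled by TMM and tested with edgeR 4.0.16 (quasi-likelihood, robust) under R 4.3.3, with terms for dose and run and Benjamini-Hochberg adjustment over all genes at 0.05. Log2 CPM for correlations used a prior count of 2, with 100000 permutations, two-sided. Standard errors were derived from each fold change with its F value. On simulated counts for 50 against 0 mg/kg over 14415 genes, recovery was 26% for 1.5-fold changes, 70% for 2-fold, 88% for 3-fold and 88% for 4-fold changes, with 8 false calls. The simulation changed 50 genes at each fold together and held no run effect, so it does not give the power for the members. In the data, the SE of this comparison had a median of 0.197 over all genes. It was 0.22 for Cyp1a2, 0.21 for Tiparp, 0.45 for Cyp1a1 and 0.89 for Cyp1b1. Library pairs within a dose (76 pairs, genes with at least 40 reads) differed by 12 to 124 times counting noise, so none was a repeat. Alternatives were DESeq2 1.42.0, limma-voom (limma 3.58.1), other scalings, filters, thresholds and samples.

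The members, the lists and the tests were chosen with earlier results of these data known. Every member was named in every comparison. The 3 genes most like each tested member by Pearson r were named, as were the 6 machinery genes and any list gene past the threshold. A further gene chosen with that list is not reported here. Exact intervals of pooled reads and floors cover counting error only. The edgeR intervals and p-values also take in the spread between these mice.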

Additional observations from a re-analysis of the deposited data

Results flagged for a closer look

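Each member was examined in each dose for a mouse far from the rest of its group, and 8 of 24 groups had one. Where all other mice of a group have no read, 1 mouse with a read is flagged whatever its level. A chance rate of 1 group in 20 therefore does not apply to such genes, and the count of 8 is not an excess over it. For Cyp1b1 it was 5 mg/kg replicate 8, at 18.2 CPM against at most 2.16 CPM in the other mice of that dose. Ahrr was high in the same library, at 1.66 CPM (16 reads) against at most 0.397 CPM. The steroid-producing cell markers, summed to 3842 CPM, were high there too, and their part in both values was not tested.

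The other 6 come from genes at the edge of detection, where 1 or 2 reads stand against libraries with none. They were Ahrr in 0 mg/kg replicate 2 (0.145 CPM) and 0.5 mg/kg replicate 2 (0.135 CPM), and Aldh3a1 in 0 mg/kg replicate 4 (0.268 CPM), 0.5 mg/kg replicate 2 (0.135 CPM), 5 mg/kg replicate 8 (0.104 CPM) and 50 mg/kg replicate 8 (0.124 CPM).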

How the results depend on the processing

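Of 819 alternative log2 fold changes of tested members, 795 kept their direction and 24 reversed, and 0 passed the threshold. Without the run term Tiparp had -0.0185 at 50 against 0 mg/kg. In the run from 601 alone Cyp1a1 had -0.91 and Cyp1a2 -0.29 at 0.5 against 0 mg/kg. In the run from 619 alone, with 1 control assumed to vary like the other groups, Cyp1b1 had -0.22 and Tiparp -0.60 at 50 mg/kg, Tiparp -0.49 at 5 mg/kg, Cyp1b1 -0.89 and Tiparp -0.69 at 0.5 mg/kg, and Cyp1a1 0.11 at 50 against 5 mg/kg. Cyp1b1 had -0.49 in the run comparison without 5 mg/kg replicates 6 and 8, and -0.44 at 0.5 mg/kg without 0.5 mg/kg replicates 1 and 2. With 1 mouse left out at a time, the ranges of the results that reversed at 50 against 0 mg/kg were -0.0058 to 0.25 for Cyp1a2, -0.18 to 0.39 for Cyp1b1 and -0.086 to 0.33 for Tiparp. They were -0.002 to 0.62 for Cyp1a1 at 0.5 mg/kg, -0.14 to 0.030 for Cyp1a2 at 50 against 5 mg/kg, -0.43 to 0.84 for Cyp1b1 between runs, and -0.34 to 0.057 for Cyp1a2 and -0.17 to 0.19 for Tiparp in the interaction of run and dose.

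Counts of called genes moved more. DESeq2 called 3 at 50 against 0 mg/kg, 4 at 5, 3 at 0.5, 108 between runs and 11 for any dose. Limma-voom called 6 between runs and 0 for any dose. Between runs, 62 passed at an adjusted p of 0.1 and 8 with at least 1 CPM in 5 mice. For any dose, 0 passed with no filter beyond 1 read. Without the run term 0 passed at 50 mg/kg and for any dose. The run from 601 alone gave 4 at 50 mg/kg, 33 at 0.5 mg/kg and 9 for any dose, and the run from 619 alone gave 0 at 50 mg/kg and 0 for any dose. Leaving out 1 mouse gave 0 to 1 at 50 mg/kg, 0 to 3 at 5 mg/kg, 2 to 60 between runs (60 when control replicate 4 or high-dose replicate 7 was dropped, 2 when middle-dose replicate 4 was), 0 to 4 for any dose and 0 to 2 for the interaction (2 when high-dose replicate 1 was dropped). The cause of these moves was not tested. The correlation of Cyp1a1 and Tiparp reversed to -0.106 after dose and run means were taken out and to -0.227 in the run from 619, and that of Cyp1a2 and Tiparp passed at -0.694 in the former.

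Depth limits Ahrr, Aldh3a1, Cyp1a1 and Cyp1b1, which had at most 20 reads in every library but 5 mg/kg replicate 8. No paired analysis was possible because the labels give each mouse a number of its own, shared by no other group.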
